A study of Mus musculus with 16 samples.

Results

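The 42 genes described here encode nuclear subunits of the last 3 machines of mitochondrial oxidative phosphorylation, in quadriceps muscle of control and Mfn2 knockout (KO) mice. They are all genes in the array's annotation whose symbol begins with Uqcr, Atp5 or Cox4 to Cox8, with Cyc1 added, and they make up 42 of the 17097 genes measured. Complex III supplied 8 of them, complex IV 17 and ATP synthase 17. A gene was read from its brightest probe set, and 18 of the 42 had more than 1 probe set.

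The product of Mfn2, mitofusin 2, sits in the outer membrane of mitochondria and joins them to each other. Quadriceps was taken from control mice and from Mfn2 KO mice at 6 months of age, called young, and at 22 months, called old, with 4 mice in each of the 4 groups and 1 array per mouse, 16 arrays in all. All mice ate standard chow, and the muscle was snap frozen. How and in which cells Mfn2 was deleted is not given in the sources used here, and whole muscle holds other cells besides fibres. The labels name families of mice: old mice supplied A and B, young mice C and D, and the rest, of both ages, were labelled Other.

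Complex III, the cytochrome bc1 complex, passes electrons from ubiquinol to cytochrome c, and complex IV, cytochrome c oxidase, passes them on to oxygen. Both move protons across the inner mitochondrial membrane, and ATP synthase lets these protons return through its rotor to make ATP. Each complex combines nuclear subunits with others encoded in mitochondrial DNA, which are not in this gene set, and several complex IV subunits have a heart and skeletal muscle isoform beside one made in most tissues. Skeletal muscle draws on these complexes for the ATP that sustained contraction consumes.

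Promoters are shown because nuclear respiratory factor 1 (NRF1), GABP, the estrogen-related receptors and the CCAAT-binding factor NF-Y are known regulators of nuclear genes of this kind. Promoter windows from RefSeq (build GRCm38.p6) were held for 31 of the 42 genes, and the 250 bases before each start were searched on both strands. The 4 below are those of Cox5b and Cox6b1, with the smallest p-values in young KO muscle, of Atp5g1, with the smallest for age in KO muscle, and of Cox6a1, which held matches to 3 of the motifs. Atp5h and Atp5l also held matches to 3 of the motifs and are not shown. Capitals mark GCGCA, any base, GCGC (NRF1), CCGGAAG (GABP), AAGGTCA (estrogen-related receptor) and CCAAT (NF-Y) on either strand, read 5′ to 3′ along the gene.
Cox5b, chr1:36691237-36691486, plus strand: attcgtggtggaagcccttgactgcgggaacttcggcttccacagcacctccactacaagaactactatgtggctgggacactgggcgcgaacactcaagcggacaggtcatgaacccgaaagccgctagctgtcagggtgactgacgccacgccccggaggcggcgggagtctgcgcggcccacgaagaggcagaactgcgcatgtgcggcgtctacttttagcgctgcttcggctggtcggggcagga
Cox6b1, chr7:30626115-30626364, minus strand: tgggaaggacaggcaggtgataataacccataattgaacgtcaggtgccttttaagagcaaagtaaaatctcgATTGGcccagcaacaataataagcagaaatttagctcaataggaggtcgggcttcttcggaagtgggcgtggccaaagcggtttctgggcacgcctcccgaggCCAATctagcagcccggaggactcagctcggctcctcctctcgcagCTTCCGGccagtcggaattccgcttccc
Atp5g1, chr11:96075632-96075881, minus strand: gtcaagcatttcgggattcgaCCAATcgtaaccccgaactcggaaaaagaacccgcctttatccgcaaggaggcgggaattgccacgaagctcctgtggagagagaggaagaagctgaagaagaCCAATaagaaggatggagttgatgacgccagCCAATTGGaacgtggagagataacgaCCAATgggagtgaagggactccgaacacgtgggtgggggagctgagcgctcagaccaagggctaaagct
Cox6a1, chr5:115348959-115349208, minus strand: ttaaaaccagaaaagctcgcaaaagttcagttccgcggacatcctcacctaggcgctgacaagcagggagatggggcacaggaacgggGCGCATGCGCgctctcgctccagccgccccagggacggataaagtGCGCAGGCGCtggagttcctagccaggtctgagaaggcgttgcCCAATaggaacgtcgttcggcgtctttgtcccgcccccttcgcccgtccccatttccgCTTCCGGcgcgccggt

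The Atp5g1 window held 5 CCAAT matches and none of the other motifs, 2 of them sharing bases in the run CCAATTGG. Cox6a1 held 2 NRF1 matches, 1 GABP match and 1 CCAAT match. Cox6b1 held 1 GABP match, 28 bases before the start, and 2 CCAAT matches, and Cox5b held none of these letters. Over the 31 genes, the NRF1 letters were found in 5 (16.1%) against 4.23% of the 27025 genes with a window, and CCGGAAG in 7 (22.6%) against 7.83%. AAGGTCA was found in 2 (6.45% against 4.70%), CCAAT in 16 (51.6% against 37.5%) and the TATA box letters TATAAA in 3 (9.68% against 14.3%). A match is a run of letters and not a measured binding site.

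Values are log2 signals, so that a difference of 1 is a doubling. Probe sets differ in affinity, and levels are not compared between genes. Of the 42 genes, 36 had a mean signal over 16 arrays above 9.5, from 9.98 for Atp5g2 to 11.95 for Cox5b, where the brightest probe set of any gene reached 12.7 to 12.8 on each array. The other 6 were all complex IV genes: Cox6a1 at 9.16, Cox8a at 8.46, Cox8c at 5.82, Cox4i2 at 5.78, Cox6b2 at 4.63 and Cox7b2 at 3.31. The 23 nonspecific control probe sets had means from 2.32 to 6.81, with a median of 2.89. The last 4 thus lay within the range of signal that probes give without a target, though above its median. The cut at 9.5 falls in the gap between Cox6a1 and Atp5g2 and was set after the levels were seen. A list of 9 skeletal muscle genes used as fast-fibre markers averaged between 12.1 and 12.3 on every array.

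Mfn2 itself was read first. Its signal was 8.66, 9.05, 8.03 and 9.45 in the 4 young control mice and 8.41, 8.49, 8.38 and 8.54 in the 4 young KO mice. In old mice it was 8.52, 8.67, 8.34 and 9.18 in controls and 8.31, 8.01, 6.32 and 8.32 in KO mice. Young KO values lay within the young control range, while every old KO value lay below every old control value. By limma the KO minus control difference was -0.34 at 6 months (standard error, SE, 0.38, adjusted p = 1.0) and -0.94 at 22 months (SE 0.38, unadjusted p = 0.0254, adjusted p = 1.0), so neither passed an adjusted p of 0.05. Mfn2 signal thus did not separate the mice labelled young KO from the young controls, and whether its probes lie in the deleted part is not given in the sources used here.

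No gene of the 42 passed the test, an adjusted p under 0.05 by limma over all 17097 genes, in any of 7 comparisons. These were KO against control at each age and averaged over ages, old against young in each genotype and averaged over genotypes, and the difference between the age differences. With the replicate number of the labels in the fit as a block, the count was again 0 in each, and the lowest adjusted p of any member was 0.320 (Cox7b2, old against young over both genotypes). Few genes of any kind passed: 0.0585% of all genes for age over both genotypes, 0.0175% for age in KO muscle and 0% in the other 5. With the block the shares were 0.579%, 0.0234% and, for age in controls, 0.0468%, with 0% in the other 4. The bright genes were measured with little spread. The 36 had a median within-group SD of 0.067, against 0.10 for the 718 other genes in the same range of level. The heat map gives every gene in every mouse.

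**Figure D1:**
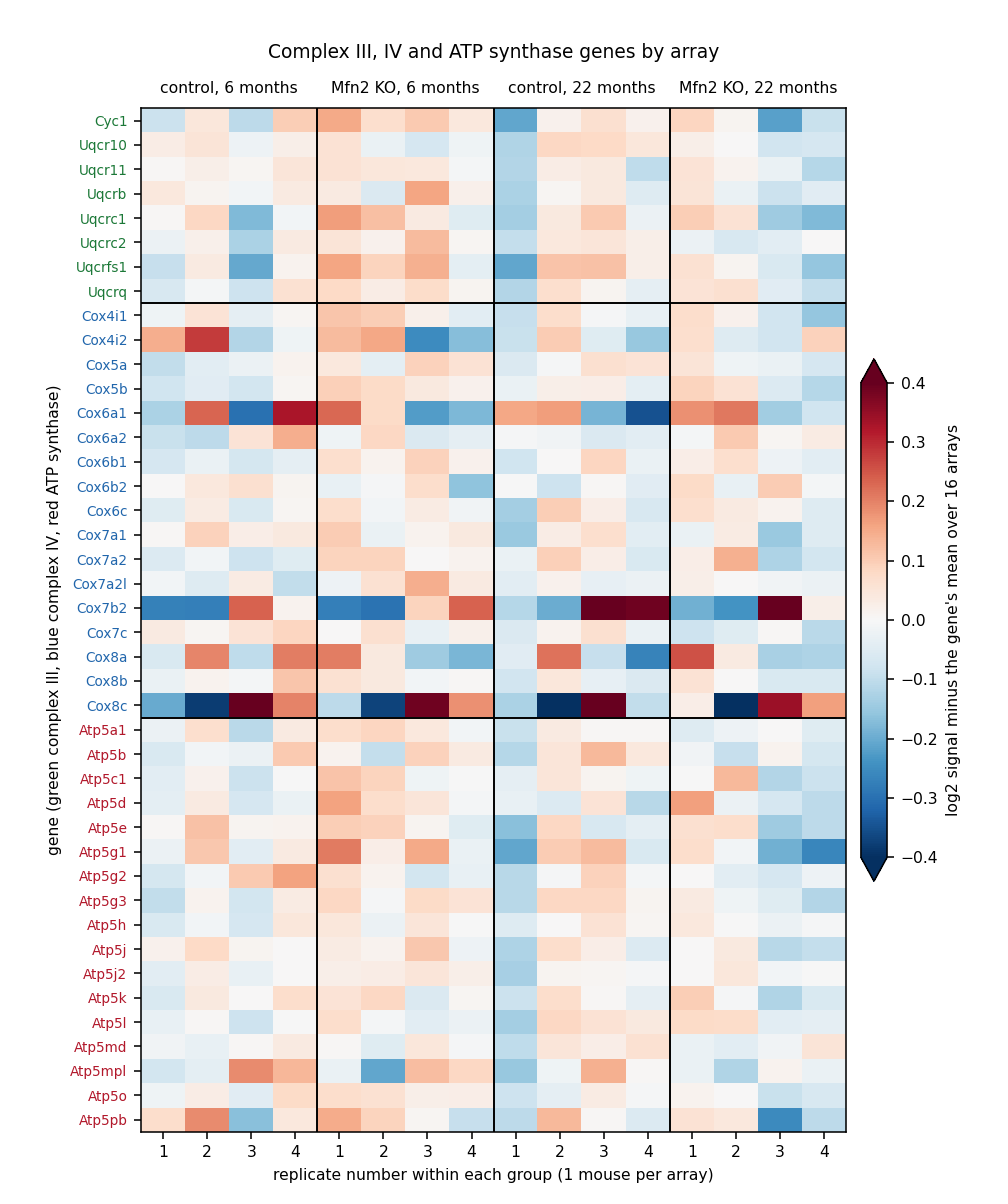
Signal of the 42 genes (rows, grouped by complex) in 16 arrays (columns, grouped by genotype and age), as log2 signal minus the gene's own mean over all arrays; red is above and blue below that mean, and values past 0.4 have the end colour. Old control 1 is blue for nearly every bright gene, young KO 1 mostly red, and the dim Cox6a1, Cox7b2, Cox8a and Cox8c vary more, Cox7b2 and Cox8c being lower in most mice numbered 1 and 2.

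In complex III, the 2 core proteins Uqcrc1 and Uqcrc2, the Rieske iron-sulfur protein Uqcrfs1 and cytochrome c1 (Cyc1) were higher on average in young KO muscle than in young controls, but none passed. Uqcrfs1, the subunit that carries electrons to cytochrome c1, read 10.69, 10.81, 10.57 and 10.79 in the 4 young controls and 10.94, 10.87, 10.92 and 10.74 in the 4 young KO mice. In 3 of the 4 KO mice the value exceeds every control, and in KO 4 it lies inside the control range. The difference was 0.15 (95% interval -0.013 to 0.31, unadjusted p = 0.0693), the largest among the brightest probe sets of the 42 genes in this comparison. Cyc1 differed by 0.10 (-0.046 to 0.25), Uqcrc1 by 0.093 (-0.064 to 0.25) and Uqcrc2 by 0.074 (-0.013 to 0.16). A second bright probe set of Uqcrc2 differed by 0.164, more than Uqcrfs1. Among the small subunits, Uqcrq, which binds near cytochrome b, differed by 0.072, Uqcrb by 0.019, Uqcr11 by 0.012 and Uqcr10 by -0.034. In all, 7 of 8 were higher, with a median of 0.073 beside -0.0056 for all 17097 genes.

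At 22 months the KO minus control differences of complex III were small and mixed, 3 of 8 higher, with a median of -0.031. Uqcr10 was the most negative, at -0.051 (-0.15 to 0.050). With age, all 8 were lower in old than in young KO mice, by a median of -0.074, while in controls 5 of 8 were higher and the median was 0.0035. The young KO mice enter both the genotype comparison at 6 months and the age comparison in KO muscle, so these are not separate observations.

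Cyc1 and Uqcrc2 had the smallest p-values of complex III for age in KO muscle. Cyc1 read 11.12, 11.04, 11.07 and 11.01 in young KO mice and 11.05, 10.98, 10.75 and 10.88 in old KO mice, a difference of -0.14 (-0.29 to 0.0052, unadjusted p = 0.0575). Old KO mouse 3 was lowest, and old KO 1 lay within the young range. Uqcrc2 read 11.57, 11.54, 11.65 and 11.53 against 11.50, 11.46, 11.48 and 11.52, with no overlap between the groups, and differed by -0.083 (-0.17 to 0.0035, unadjusted p = 0.0590). Its second probe set read 10.49, 10.41, 10.55 and 10.30 against 10.46, 10.43, 10.22 and 10.26, and there the groups overlapped. Uqcrfs1 differed by -0.12 in KO muscle and by 0.073 in controls. On the brightest probe sets this gap between genotypes, -0.20 (-0.43 to 0.034, unadjusted p = 0.0888), was the widest in complex III. The second probe set of Uqcrc2 gave a wider gap, -0.21.

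In complex IV, the only members under an unadjusted p of 0.05 in young KO muscle were Cox6b1, Cox5b and Cox7a2l, all higher, 3 of 42 where 1% of all genes were higher at that p and 0% passed the adjusted test. Cox5b encodes a nuclear subunit that faces the matrix and binds zinc. It read 11.87, 11.90, 11.88 and 11.96 in young controls and 12.05, 12.03, 11.99 and 11.97 in young KO mice, so that every KO value lay above every control value. The means were 11.90 ± 0.040 and 12.01 ± 0.035 (SD, n = 4), a difference of 0.10 (0.023 to 0.19, 1.08-fold, limma unadjusted p = 0.0154, and 0.0200 with the replicate block, adjusted p = 1.0).

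Cox6b1, which lies on the intermembrane side where oxidase monomers meet, had a similar pattern. It read 11.55, 11.59, 11.55 and 11.58 in young controls and 11.68, 11.63, 11.71 and 11.63 in young KO mice. These groups do not overlap either, the lowest KO mouse standing just above the highest control. The difference was 0.10 (0.024 to 0.17, 1.07-fold, unadjusted p = 0.0128, and 0.0230 with the block). Cox7a2, the Cox7a isoform of most tissues, read 11.51, 11.55, 11.48 and 11.52 against 11.65, 11.65, 11.57 and 11.58, also without overlap, with a difference of 0.10 (-0.0072 to 0.20, unadjusted p = 0.0658, and 0.0279 with the block). These 3 genes were the members without overlap in this comparison; 0.661% of all genes were higher in KO without overlap.

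Cox7a2l, a relative of Cox7a2 that helps join complexes III and IV into supercomplexes, read 10.84, 10.80, 10.88 and 10.75 in young controls and 10.83, 10.91, 10.99 and 10.89 in young KO mice. KO mouse 1 lay inside the control range and the other 3 above it. The difference was 0.087 (0.0039 to 0.17, unadjusted p = 0.0412, and 0.0537 with the replicate block). All 4 genes were nearly level between genotypes at 22 months: Cox5b differed by -0.0018, Cox6b1 by 0.012, Cox7a2 by -0.017 and Cox7a2l by 0.016. The gap between the age differences did not pass for any of them, Cox5b coming nearest at -0.11 (-0.22 to 0.0091, unadjusted p = 0.0683).

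Other probe sets of these genes gave smaller differences in young KO muscle. A second bright probe set of Cox5b differed by -0.028 (SE 0.043), of Cox6b1 by 0.032 (SE 0.034) and of Cox7a2 by 0.016 (SE 0.036). The Cox5b probe sets thus differ in direction, and which transcripts each probe set reads was not tested. For Cox7a2l the other probe sets went the same way, by 0.078 and 0.059.

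**Figure D2:**
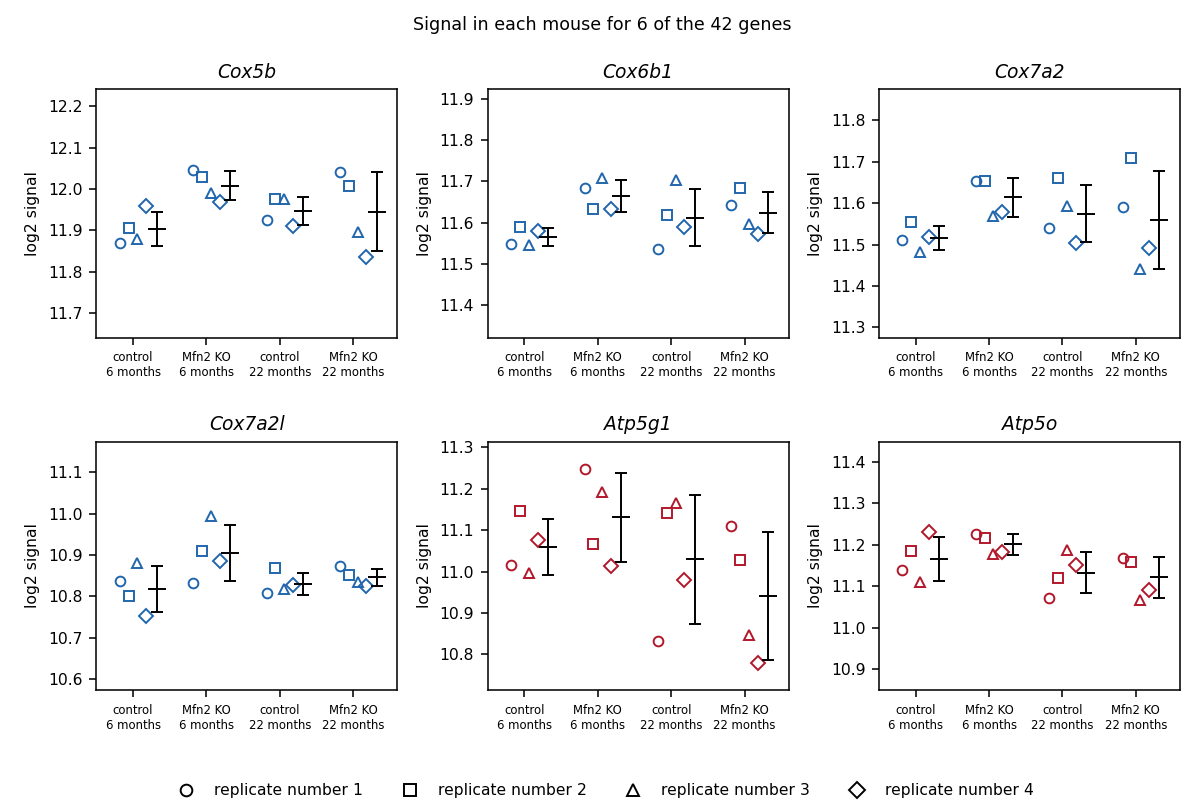
Log2 signal of 6 genes in each of 16 mice (open symbols, 1 shape per replicate number; blue complex IV, red ATP synthase), with the group mean and SD (n = 4) in black; each axis spans 0.6 log2 units and does not start at 0. The young KO mice of Cox5b, Cox6b1 and Cox7a2 lie above all young controls, and the old KO mice of Atp5o lie below all young KO mice.

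The isoforms of heart and skeletal muscle lay near 0. Cox6a2 differed by -0.0088 in young KO muscle (-0.11 to 0.10), Cox7a1 by -0.0084 (-0.11 to 0.092) and Cox8b by 0.0016 (-0.076 to 0.080). At 22 months their differences were 0.064, -0.026 and 0.014. Cox6a2 was the 1 member higher with age in KO muscle in 4 of 4 replicate numbers, by 0.041 (-0.065 to 0.15). No test compared the isoforms with each other.

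Cox7a1 was the complex IV gene with the smallest p for age over both genotypes. It read 11.45, 11.54, 11.47 and 11.49 in young controls and 11.55, 11.42, 11.46 and 11.49 in young KO mice. In old mice it read 11.30, 11.48, 11.51 and 11.41 in controls and 11.42, 11.48, 11.30 and 11.39 in KO mice. Old control 1 and old KO 3 were the lowest of the 16, and the ages overlapped. The age difference over both genotypes was -0.071 (-0.14 to -0.00052, 0.952-fold, unadjusted p = 0.0485, adjusted p = 1.0). Cox7a1 and Atp5o were the 2 of 42 genes lower at an unadjusted p under 0.05 in that comparison, as were 1.66% of all genes. With the replicate block their p-values were 0.0663 and 0.0712. For genotype over both ages, Cox6b1 was the 1 member at that p, higher by 0.055 (0.0028 to 0.11, unadjusted p = 0.0402, and 0.0617 with the block), where 0.842% of all genes were higher.

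The other bright subunits of complex IV had small differences in both directions. Cox4i1, the general form of the largest nuclear subunit, differed by 0.045 at 6 months and -0.022 at 22 months, and by -0.083 with age in KO muscle (-0.19 to 0.019). Cox5a, a matrix-side subunit, differed by 0.075 and -0.028. Cox6c differed by 0.037 and 0.035, and Cox7c by -0.033 and -0.057. The last value, -0.057 (-0.14 to 0.030, unadjusted p = 0.184), was the smallest p of all 42 genes at 22 months, and Cox7c was lower in KO in 4 of 4 replicate numbers.

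The 6 dim complex IV genes had wide limits. Cox4i2, the Cox4 form described in lung, lay at 5.86 ± 0.17 in young controls and 5.75 ± 0.21 in young KO mice (SD, n = 4), and Cox6a1, the general Cox6a form, at 9.19 ± 0.30 and 9.14 ± 0.22. Cox8a differed by -0.079 (-0.36 to 0.20), and Cox8c, a form described in testis, by 0.0027 (-0.52 to 0.53). Cox7b2 varied with the replicate number. It averaged 3.10 and 3.06 over the mice numbered 1 and 2 and 3.61 and 3.48 over those numbered 3 and 4, with no overlap between the 8 mice of each kind. Its age difference over both genotypes was 0.14 (-0.15 to 0.42), with an unadjusted p of 0.324 that became 0.0222 with the block. Cox6b2 at 4.66 ± 0.029 and 4.60 ± 0.10 lay within the range of the nonspecific control probe sets.

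In ATP synthase, the subunits of the catalytic head had small differences between genotypes, and none passed. Atp5b, the catalytic beta subunit, differed by 0.0096 at 6 months (-0.10 to 0.12) and -0.066 at 22 months. Atp5a1, the alpha subunit, differed by 0.053 and -0.018. Atp5c1, the gamma shaft, was higher in young KO in 4 of 4 replicate numbers, at 0.074 (-0.025 to 0.17), as was Atp5d, the delta subunit of the rotor stalk, at 0.094 (-0.021 to 0.21). In all, 15 of 17 were higher in young KO muscle, with a median of 0.026, and 4 of 17 at 22 months, with a median of -0.018.

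The 3 genes Atp5g1, Atp5g2 and Atp5g3 encode the same mature c subunit, which forms the proton-driven ring. Atp5g1 read 11.25, 11.07, 11.19 and 11.01 in young KO mice and 11.11, 11.03, 10.85 and 10.78 in old KO mice. Old KO 3 and 4 lay below every young KO mouse, and old KO 1 and 2 inside their range. The difference was -0.19 (-0.37 to -0.014, 0.877-fold, unadjusted p = 0.0365, and 0.0332 with the block, adjusted p = 1.0), the most negative of the 42. In controls Atp5g1 read 11.02, 11.15, 11.00 and 11.08 at 6 months and 10.83, 11.14, 11.17 and 10.98 at 22 months, where old control 1 was the lowest and the groups overlapped, with a difference of -0.029. Atp5g3 differed with age by -0.088 in KO muscle and 0.048 in controls. The gap of -0.14 (-0.27 to 0.0013, unadjusted p = 0.0519) was the smallest p of the 42 genes for a difference between the age differences, and the gap for Atp5g2 was 0.028.

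Atp5o, the OSCP subunit that ties the catalytic head to the peripheral stalk, read 11.23, 11.22, 11.18 and 11.18 in young KO mice and 11.17, 11.16, 11.07 and 11.09 in old KO mice, without overlap. The difference was -0.080 (-0.16 to -0.0028, 0.946-fold, unadjusted p = 0.0432, and 0.0721 with the block), and a second probe set gave -0.11 (SE 0.048, unadjusted p = 0.0330). In controls Atp5o differed with age by -0.034, and over both genotypes by -0.057 (unadjusted p = 0.0425). Atp5g1 and Atp5o were the 2 of 42 genes lower at an unadjusted p under 0.05 in old KO muscle, where 1.25% of all genes were, and 0.0175% of all genes passed the adjusted test. On the brightest probe sets, Atp5o and Uqcrc2 were the 2 without overlap, against 0.871% of all genes.

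The remaining subunits had no p under 0.05 for age in KO muscle. Atp5pb, the b subunit of the peripheral stalk, differed by -0.10 with age in KO muscle (-0.28 to 0.074) and Atp5j, its coupling factor 6, by -0.075. Atp5h, the d subunit of the stalk, differed by -0.015 and Atp5j2, the f subunit, by -0.022. The e and g subunits of the dimer interface, Atp5k and Atp5l, differed by -0.044 and 0.018. Over both genotypes 11 of the 42 genes were lower in old mice in 4 of 4 replicate numbers (11.2% of all genes), among them Atp5e, the epsilon subunit, at -0.076 (-0.16 to 0.013, unadjusted p = 0.0883, and 0.0465 with the block). With age in KO muscle, the small membrane subunits Atp5md and Atp5mpl differed by -0.0066 and -0.033.

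**Figure D3:**
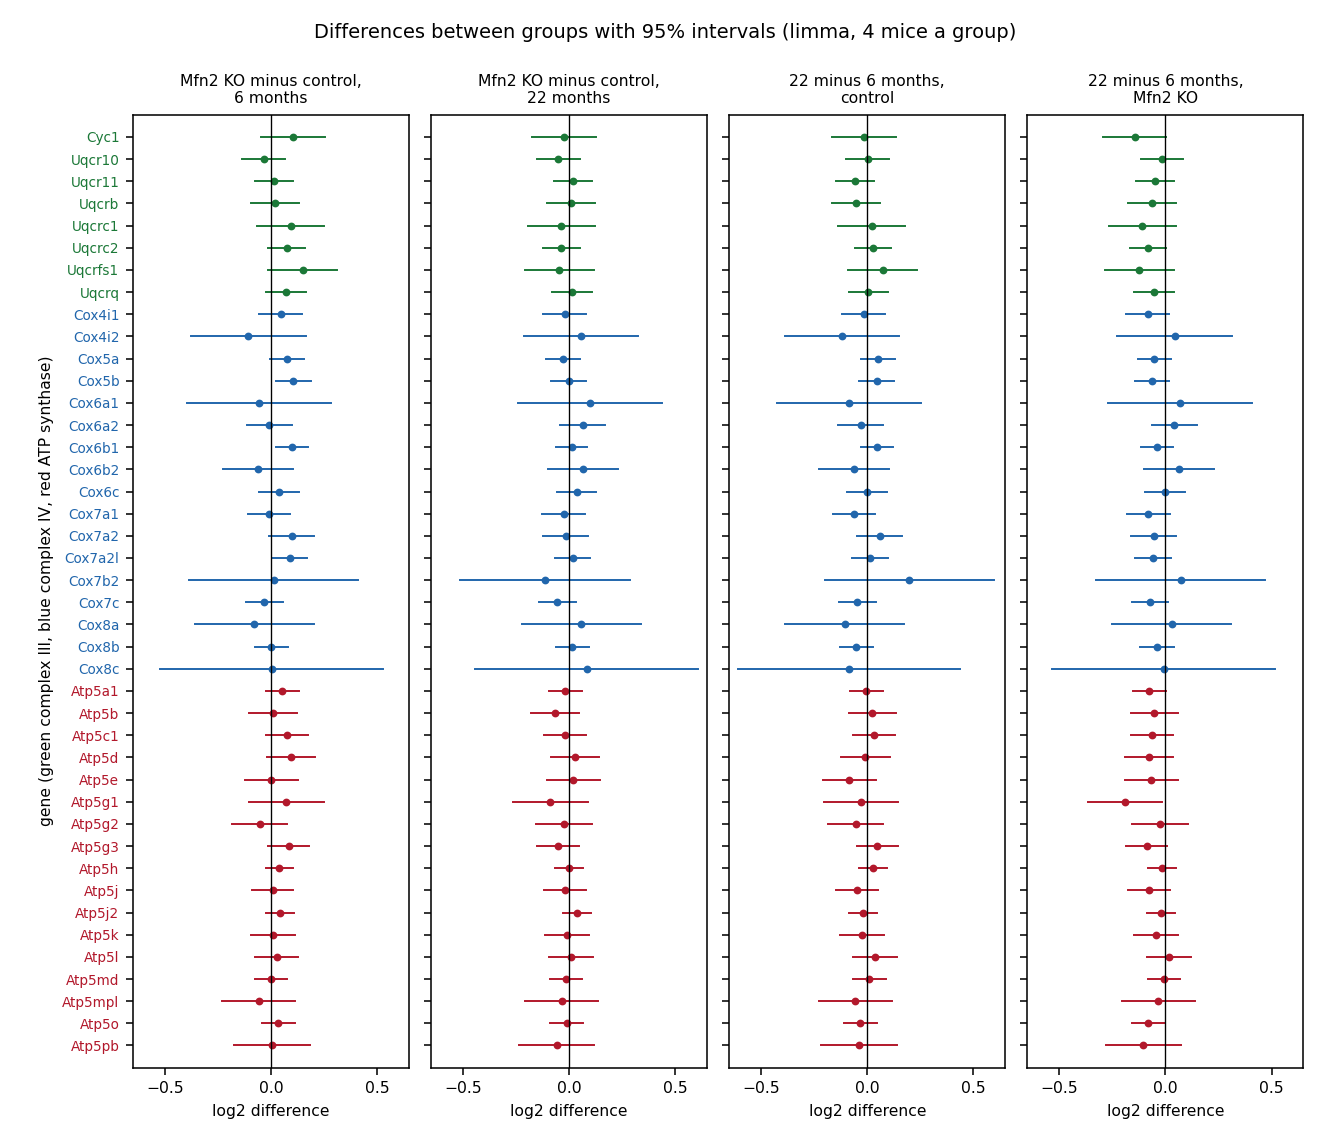
Log2 difference (point) and 95% interval (line) of each of the 42 genes in 4 comparisons, from limma with 4 mice in each group; green is complex III, blue complex IV and red ATP synthase. Points lie mostly right of 0 in the first panel and left of 0 in the last, nearly all intervals cross 0, and the widest belong to the dim complex IV genes.

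Counted over the 42 genes, 32 were higher in young KO than in young control muscle (76.2%, against 47.8% of all genes), with a median difference of 0.023 beside -0.0056 for all genes. At 22 months 17 were higher (40.5% against 48.4%), with a median of -0.014, which was above 0 without old control 2 (0.0019), old control 3 (0.0075), old KO 3 (0.0099) or old KO 4 (0.0039). Old controls against young controls gave 17 higher (40.5% against 46.9%) and a median of -0.017, which became 0.018 without old control 1 and 0.0014 without young control 2. Old KO against young KO gave 7 higher (16.7% against 47.1%) and a median of -0.053, where -0.0083 was the median of all genes. These comparisons share groups, the young KO mice entering the first and the last, and the genes vary together across mice, so these counts are not 42 separate observations. Of the 718 other genes of the bright genes' level, 51.8% were higher in young KO, 39.8% in old KO, 51.3% with age in controls and 44.6% with age in KO muscle. The 36 bright genes had shares of 83.3%, 33.3%, 44.4% and 5.56% in the same order. At 22 months genes of this level were thus more often lower than higher, members or not.

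Direction was also counted within each replicate number. In young KO muscle 7 of 42 genes were higher than control in 4 of 4 numbers (8.88% of all genes) and 1 was lower in 4 of 4 (9.71%). With age in KO muscle 14 were lower in 4 of 4 (10.8% of all genes) and 1 was higher, Cox6a2 (8.92%). At 22 months 2 were higher (6.46%) and 1 lower (7.08%) in KO. With age in controls 2 were higher (7.45%) and 2 lower (9.82%).

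At 6 months 33 of the 36 had a 95% interval lying wholly within 0.25 log2 units of 0, at 22 months 35 did, with age 36 in controls and 31 in KO muscle. The outermost bounds among these 36 were 0.853-fold and 1.24-fold in young KO against control, and 0.776-fold and 1.11-fold in old against young KO. These limits apply to the array's scale, on which the genes stand near the top of the signal range, and how far that compresses differences was not tested.

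The 36 bright genes varied together between mice of one group. With group means removed, the 630 pairs had a median Pearson r over 16 arrays of 0.54, and 89.5% were above 0. The 718 other genes of the same level had a median of 0.16. By ranks the values were 0.54 and 0.14. Without the 2 arrays farthest from the middle, old control 1 and old KO 4, they were 0.45 and 0.18. With the means of the replicate numbers removed as well they were 0.68 and 0.026. These are descriptions without a test: the points share their arrays, normalization and amplification.

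Within the complexes, the 8 complex III genes were the most alike, with a median r of 0.70 and all 28 pairs above 0. ATP synthase gave 0.50 over 136 pairs and the 11 bright complex IV genes 0.38 over 55. Between complexes, complex III with ATP synthase gave 0.63, complex III with complex IV 0.57 and complex IV with ATP synthase 0.45. With group means removed, Cox7a2l (r = -0.054 with the median of the other bright genes), Cox6a2 (-0.0053), Atp5mpl (0.13), Atp5md (0.28) and Cox7c (0.29) had the lowest values among the bright genes, and Cyc1 (0.90) and Atp5g1 (0.93) were examples of close followers. With the means of the replicate numbers removed as well, Atp5mpl gave 0.77 and Atp5md 0.58. Cox7a2l (-0.13), Cox6a2 (-0.017) and Cox7c (0.25) stayed low.

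Among the 718 other genes of that level, those nearest to the bright genes' median, with group and number removed, were Ndufa11 (r = 0.96), Coq9 (0.96), Ndufb10 (0.94), Ndufa6 (0.93) and Glrx5 (0.93), over 16 arrays. The Nduf genes encode complex I subunits, Coq9 acts in ubiquinone synthesis and Glrx5 in iron-sulfur cluster assembly. They were picked for their likeness and carry no test.

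**Figure D4:**
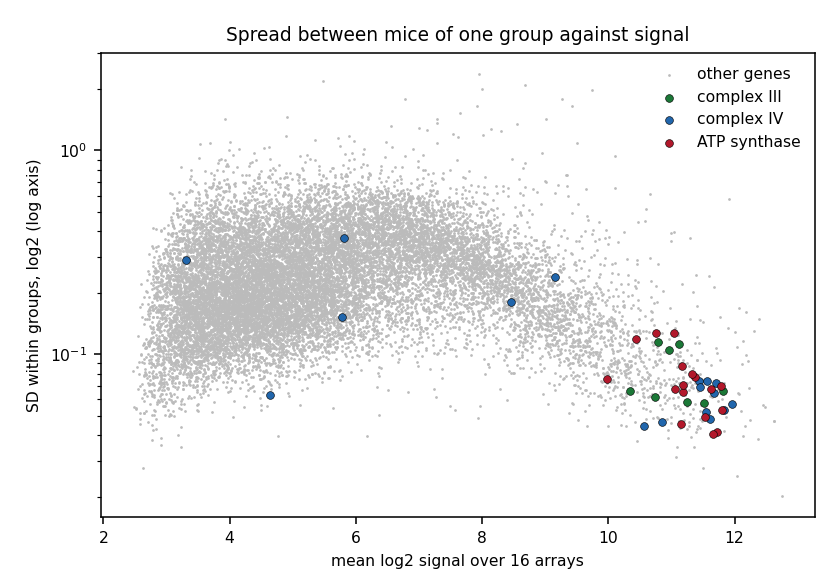
Within-group SD in log2 units (vertical, log axis) against mean log2 signal over 16 arrays (horizontal) for 17097 genes, with the 42 genes in colour. The 36 bright genes sit at the lower right, with SDs from 0.041 to 0.13, and the dim complex IV genes lie among other genes of their level.

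Some arrays were low or high for most of the 36 bright genes. Their median about the genes' own means was -0.11 in old control 1, where 0 of 36 lay above their mean, -0.066 in old KO 4 (3 of 36) and -0.058 in old KO 3 (6 of 36). The 176 genes between the quartiles of the 42 genes' levels, members included, were read beside them. In old KO 3 these lay low too, with a median of -0.045, against 0.0034 in old control 1 and -0.012 in old KO 4. After quantile normalization between arrays the median over all 42 genes went from -0.058 to -0.016 in old KO 3, from -0.10 to -0.11 in old control 1 and from -0.065 to -0.067 in old KO 4. The median of the 36 was highest, 0.069, in young KO 1, with 33 of 36 above. The other 3 old controls lay at 0.041, 0.039 and -0.025 and the other old KO mice at 0.039 and 0.0067. Young controls ran from -0.040 to 0.035 and young KO mice from 0.0022 upward. All 4 groups overlapped in this median, and no young KO mouse fell below 0. Over all 42 genes, however, young KO 4 lay at -0.0023, and at -0.013 after quantile normalization.

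**Figure D5:**
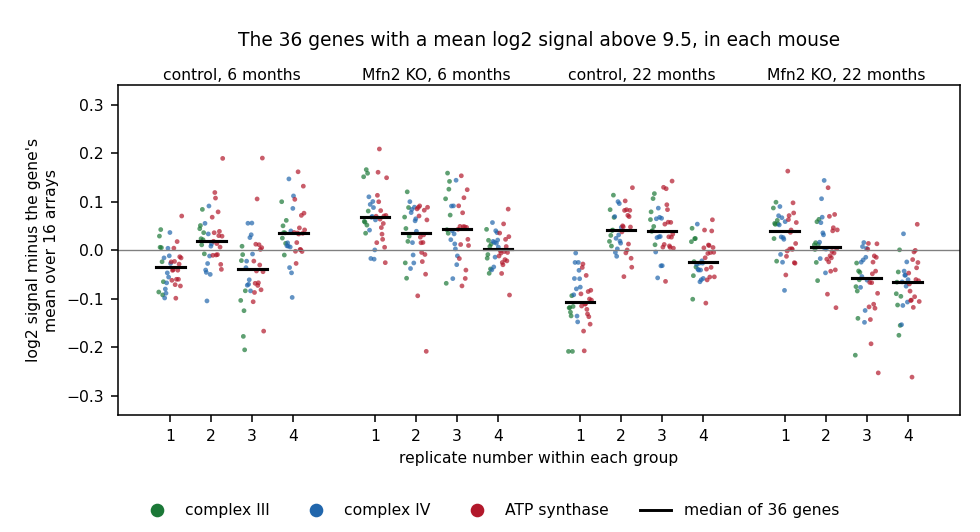
The 36 bright genes in each of 16 mice, as log2 signal minus the gene's mean over all arrays (points; green complex III, blue complex IV, red ATP synthase), with their median as a black bar. Old control 1 and old KO 3 and 4 lie low for nearly all genes, and the 4 young KO medians run from 0.0022 to 0.069.

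Genes that build or serve these complexes had no member past the test for genotype; the lists were drawn up with earlier results of these data known. All 4 assembly and regulation genes of ATP synthase, Atpaf1, Atpaf2, Tmem70 and the inhibitor Atpif1, were higher in young KO muscle, with a median of 0.12, and 0 of 4 passed. Of 20 complex IV assembly genes 14 were higher (median 0.032) and of 5 complex III assembly genes 2 were (median -0.0033). Of cytochrome c, its testis form Cyct and its lyase Hccs, 1 of 3 was higher (median -0.053), and 1 of 3 at 22 months (median -0.042). Complex II had 5 of 6 higher (median 0.092), the citric acid cycle 10 of 10 (median 0.064) and the carriers of adenine nucleotides, phosphate and the outer membrane pores 6 of 6 (median 0.044). The smallest p of these lists was that of the pore gene Vdac1, at 0.093 (SE 0.027, unadjusted p = 0.00343, adjusted p = 1.0). At 22 months the other lists, in the order given, had 0 of 4, 5 of 20, 2 of 5, 2 of 6, 2 of 10 and 1 of 6 higher.

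With age in KO muscle, 17 of 20 complex IV assembly genes, 6 of 6 complex II genes, 9 of 10 cycle genes and 6 of 6 carriers were lower, and 0 passed. Cycs, the somatic cytochrome c that links complexes III and IV, differed by -0.094 with age over both genotypes (SE 0.033, unadjusted p = 0.0119, adjusted p = 1.0). The complex IV assembly gene Cmc2 differed by -0.18 (SE 0.071, unadjusted p = 0.0253).

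Of 15 nuclear regulators of mitochondrial genes, 1 passed, and only with the replicate block: Ppargc1b, a coactivator of oxidative genes. It read 7.08, 7.26, 5.96 and 6.97 in young controls and 7.53, 7.65, 6.77 and 7.03 in young KO mice. In old mice it read 6.03, 7.03, 6.13 and 6.53 in controls and 6.80, 7.02, 5.71 and 6.01 in KO mice, and the old mouse was lower in 3 of 4 replicate numbers among controls and in 4 of 4 among KO mice. Over both genotypes it fell by 0.62 with the block (SE 0.13, adjusted p = 0.0456), and without it the adjusted p was 1.0. The shares of all genes passing were 0.579% with the block and 0.0585% without. The call was lost with family and the block (adjusted p = 0.569), with the pyruvate carboxylase signal and the block (adjusted p = 0.732), and in 11 of 16 blocked fits that left out 1 array (adjusted p from 0.0310 to 0.108 over the 16). The fit with family links the ages only through the mice labelled Other, since each named family held mice of a single age. In young KO muscle 13 of the 15 regulators were higher (median 0.10) and at 22 months 5 were, with 0 called.

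Markers of other cell and fibre types also varied between mice. The 7 slow-fibre markers were 7 of 7 higher in young KO than in young control muscle, by a median of 1.51, and 0 passed. Their summed signal on the log2 scale was 8.58 to 12.8 in young controls, 11.2 to 13.6 in young KO, 8.96 to 13.3 in old controls and 9.67 to 13.6 in old KO mice, so that all groups overlapped. The 4 fat cell markers were 4 of 4 lower in young KO (median -0.85, 0 passing) and 4 of 4 higher with age in KO muscle (median 0.75), with summed signals of 11.2 to 11.6 in young controls, 11.1 to 11.2 in young KO, 11.1 to 11.6 in old controls and 11.1 to 11.5 in old KO mice. Their mean log2 signal ran from 7.05 to 8.08 in young controls and from 6.33 to 6.94 in young KO, without overlap. In old controls it was 6.60 to 7.96 and in old KO mice 6.58 to 7.92. The 6 macrophage markers were all higher with age in controls (median 0.50) and in KO mice (median 0.44), with summed signals of 8.04 to 8.38 in young controls and 8.25 to 9.23 in old controls. Over both genotypes the macrophage gene Mpeg1 was higher with age by 0.45, past the test with the block but not without it (adjusted p = 0.0463). Of 16 blocked fits that left out 1 array, Mpeg1 passed in 5 (adjusted p from 0.0290 to 0.109). Of 3 fibroblast markers, Col1a1, a collagen gene, fell by 1.04 with age over both genotypes (adjusted p = 0.0290, and 0.00241 with the block), while Dcn and Pdgfra differed by 0.082 and 0.065. Col1a1 passed in 16 of 16 blocked fits that left out 1 array. Without the block, leaving out 1 array gave it adjusted p from 0.0226 to 0.0937. Leaving out a replicate number gave 0.137 to 0.325, past the threshold in no case. The fibroblast list's summed signal was 10.8 to 11.4 in young controls, 10.8 to 11.6 in young KO, 10.5 to 11.0 in old controls and 10.8 to 11.1 in old KO mice. With family and the block, neither Col1a1 (adjusted p = 0.150) nor Mpeg1 (adjusted p = 0.957) passed, nor did they with the pyruvate carboxylase signal and the block (adjusted p = 0.336 and 0.532). Here too the fit with family links the ages only through the mice labelled Other. The red blood cell markers Hba-a1 and Alas2 were higher with age by 0.32 (unadjusted p = 0.000628) and 0.84 (unadjusted p = 0.00700), and neither passed. Their summed signal was 11.7 to 12.1 in young controls, 11.9 to 12.0 in young KO, 12.0 to 12.4 in old controls and 11.9 to 12.5 in old KO mice. The 9 fast-fibre markers had 7 lower in young KO (median -0.054). In whole muscle, fewer cells of a type and less RNA per cell cannot be told apart, and the part of these markers in the differences above was not tested.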

How the data were processed

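Quadriceps RNA of 16 mice was amplified with a whole-transcriptome kit and hybridised to Affymetrix mouse arrays, per the labels' protocols. The authors deposited log2 signals per probe set, made with RMA in affy per the submitters' processing notes, whose versions and settings are not given in the sources used here. The deposited arrays did not share 1 distribution. Their medians over all probe sets ran from 4.58 to 4.65 and their SDs from 1.70 to 1.94, lowest in the arrays numbered 3 (1.70 to 1.74), and quantile normalization between arrays was run as an alternative. Array number, 4 for each group, limits the precision.

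Control probe sets were left out. Probe sets with exactly 1 gene symbol in GEO's platform annotation (28898 with 1, 551 with several, 15588 with none) were reduced to the brightest per gene, giving 17097 genes. limma 3.58.1 in R 4.3.3 (lmFit and eBayes with a trend) fitted 1 mean per group, with Benjamini-Hochberg adjustment over all genes and a threshold of 0.05; it was tested on simulated data. All p-values are two-sided. Tables and plots were made with Python 3.11.15 and matplotlib 3.10.9.

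The labels give every group replicate numbers 1 to 4. With group means removed, the 24 pairs of arrays sharing a number correlated at r = 0.29 to 0.78. The 72 pairs from different groups not sharing one ran from -0.76 to 0.73 with a median of -0.46. The numbers therefore pair the arrays, though what a number stands for is not given, and a fit with the number as a block was run beside each test. Nothing says that the mice of a group were littermates or not, beyond the families named.

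The 42 genes and the lists were chosen with earlier results of these data known. The genes named are, in each complex, those with the smallest p, most positive and most negative difference in each comparison, the paired tissue isoforms and the core subunits. In the other lists, genes past the test and the one with the smallest p were eligible; further genes were named after their values were seen. 1 alternative added, as a covariate, the 3' minus 5' signal of the pyruvate carboxylase control probe sets on each array. Leaving out each array together with the block, and testing every probe set, were alternatives chosen after seeing the data.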

Additional observations from a re-analysis of the deposited data

Results flagged for a closer look

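Among 48 groups of 4 arrays checked for a sample far from the rest, Atp5e in young control 2 stood apart, with a log2 signal of 11.28 where the other 3 young controls read 11.16, 11.17 and 11.17. Its distance to the nearest of them was 0.9 of the group's whole range. Chance marks about 1 in 20 groups in this way.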

How the results depend on the processing

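In 67 recomputations under other settings, which covered the replicate block, quantile renormalization, the mean of all probe sets, genes above the median level, the compared groups alone, the family and a pyruvate carboxylase signal, 0 of the 42 genes passed, and likewise in 252 that left out an array or number. The median difference of the 42 genes moved by less than the spread of array medians within groups (pooled SD 0.064) in 65 of 67. That spread is larger than each of the medians, of which -0.053, for age in KO muscle, lay farthest from 0. A median could therefore vanish or change direction and still count as unmoved. With family and replicate block together the median became -0.082 for age in controls (-0.017 without) and 0.030 for the difference between the age differences (-0.035 without). Families A and B held only old mice and C and D only young, so this fit links the ages only through the mice labelled Other. The cause of these shifts was not tested. Of 132 values of single genes, 131 kept their direction and side of the threshold. The exception, Cox7b2 with age over both genotypes, went to -0.0033 once the pyruvate carboxylase signal was a covariate, against 0.14. The replicate block lowered the smallest adjusted p of the 42 genes from 1.0 to 0.320 and changed no call among them, while for age over both genotypes it raised the genes passing from 10 to 99 of 17097. Leaving out 1 array or 1 replicate number gave medians of 0.014 to 0.050 for genotype in young mice, -0.049 to 0.027 in old mice, -0.040 to 0.018 for age in controls and -0.070 to -0.034 for age in KO mice. Signals near the top of the array's range may compress differences, and those near the nonspecific control probe sets have no firm direction.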
